A study of Mus musculus with 3 samples.

Results

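Pericentral Wnt-dependent genes are genes that hepatocytes around the central vein express because Wnt signalling there is high. The 10 genes Glul, Axin2, Lgr5, Tbx3, Oat, Rhbg, Slc1a2, Rnf43, Znrf3 and Lect2 were taken by name, out of 20284 genes that could be named on the arrays, and every probe of each was read. All 10 had at least 1 probe well above background on all 3 arrays, and 13626 of the 20284 genes had one.

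Expression was measured in total RNA of liver from C57BL/6J mice on 3 Agilent one-colour mouse arrays, all on 1 slide. Per the labels each liver expressed human YAP and was taken at 2 days, as wild type on 1 array, YAP (WT), and as the mutants YAP (1SA) and YAP (2SA) on 1 array each. YAP is a transcriptional coactivator that the Hippo pathway holds back by phosphorylation, and the study describes the mutants as active forms. All 3 groups therefore carried a YAP transgene, and an uninjected liver was not analysed here. Per the methods, Myc-tagged YAP was delivered by hydrodynamic tail vein injection (HTVi) to male mice 8 weeks old, from a plasmid whose AFP enhancer and minimal albumin promoter are active in hepatocytes. HTVi reaches only a part of the hepatocytes, so the RNA came from cells with and without the transgene, and the mouse probes gave no check of the human transgene. Nothing in the labels states how many animals gave the RNA of an array, and the title of the YAP (WT) array carries the number 2.

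With 1 array per group there was no replicate and no test, and a difference between arrays cannot be told apart from a difference between livers. Probes spotted repeatedly on an array gave the error of a reading. Their log2 intensities had a median SD of 0.07, so that a difference between 2 arrays had an SD of 0.10, and 2 SD came to 0.21. This limit of 0.21 does not cover the spread between mice. The scanner software gave a wider error, about 10% of the signal for bright spots, which makes 0.20 on the log2 scale for a difference. Differences below are between log2 intensities from which that of the array's 75th percentile had been subtracted. This percentile was 290.8 on the YAP (WT) array, 275.7 on YAP (1SA) and 319.5 on YAP (2SA). In bulk liver, fewer cells of a type and less RNA per cell cannot be told apart.

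Wnt ligands from the endothelium of the central vein keep beta-catenin from being degraded in neighbouring hepatocytes, where it acts with TCF/LEF factors on its target genes. R-spondins strengthen the signal by binding LGR receptors and removing the ubiquitin ligases RNF43 and ZNRF3, which otherwise clear Wnt receptors from the cell surface. Hepatocytes next to the vein take up ammonia and glutamate and make glutamine, while those near the portal vein make urea.

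Promoter windows of the members were read to describe their sequence, where a window was available. They came from RefSeq on GRCm38.p6 and reached from 250 bases before the transcription start to 50 bases after it. Glul, Axin2, Oat, Slc1a2, Rnf43 and Lect2 had 7 windows in all, since Rnf43 had 2 starts. The search used the TCF/LEF letters, CTTTG followed by 2 bases that are each an A or a T, and the TEAD letters GGAATG, each on both strands, TEAD factors being the DNA-binding partners of YAP. No match of one set shared a base with a match of the other here. The windows of Glul and Axin2 are shown as the pair of standard Wnt targets, and those of Slc1a2 and Lect2 because they held both sets of letters. Capitals mark the matches, which read in reverse complement where they lie on the minus strand of the window.
Glul, chr1:153899679-153899978, plus strand: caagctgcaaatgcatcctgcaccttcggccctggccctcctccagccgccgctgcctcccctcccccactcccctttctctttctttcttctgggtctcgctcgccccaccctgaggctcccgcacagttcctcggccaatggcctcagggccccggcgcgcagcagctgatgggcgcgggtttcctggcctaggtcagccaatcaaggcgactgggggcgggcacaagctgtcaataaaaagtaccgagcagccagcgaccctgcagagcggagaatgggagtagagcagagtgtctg
Axin2, chr11:108920099-108920398, plus strand: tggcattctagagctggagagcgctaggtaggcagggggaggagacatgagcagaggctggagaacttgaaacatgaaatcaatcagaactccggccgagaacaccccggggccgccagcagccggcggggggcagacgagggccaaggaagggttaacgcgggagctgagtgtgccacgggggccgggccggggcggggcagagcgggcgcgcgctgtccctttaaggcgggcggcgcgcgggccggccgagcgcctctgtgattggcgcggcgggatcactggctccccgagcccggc
Slc1a2, chr2:102706188-102706487, plus strand: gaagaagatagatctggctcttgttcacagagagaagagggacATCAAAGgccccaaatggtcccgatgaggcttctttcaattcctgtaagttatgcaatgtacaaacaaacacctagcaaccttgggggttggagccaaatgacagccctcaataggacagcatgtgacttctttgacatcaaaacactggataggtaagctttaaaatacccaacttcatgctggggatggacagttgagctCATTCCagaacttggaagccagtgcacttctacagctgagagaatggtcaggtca
Lect2, chr13:56548489-56548788, minus strand: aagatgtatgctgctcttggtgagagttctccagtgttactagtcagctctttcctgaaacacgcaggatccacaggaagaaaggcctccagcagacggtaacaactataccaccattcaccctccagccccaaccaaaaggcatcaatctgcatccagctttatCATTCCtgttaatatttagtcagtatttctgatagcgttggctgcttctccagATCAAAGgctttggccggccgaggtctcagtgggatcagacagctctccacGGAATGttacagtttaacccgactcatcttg

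TCF/LEF letters were found in the windows of 2 of the 6 genes, Slc1a2 at bases 44 to 50 and Lect2 at bases 219 to 225, and in 16.9% of all 32851 windows. TEAD letters were found in 3 of the 6, once in Slc1a2 at bases 246 to 251, once in Oat at bases 30 to 35, and in Lect2 at bases 166 to 171 and 270 to 275. Of all windows 14.7% held them. The windows of Glul, Axin2 and Rnf43 held neither set. Matched letters describe the sequence and were not read as binding sites.

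Most members were higher in YAP (1SA) than in YAP (WT), and most were lower in YAP (2SA). Against YAP (WT), 7 of the 10 were higher and 3 lower in YAP (1SA), with a median difference of 0.28 on the log2 scale beside -0.0017 over all 13626 genes. With a stricter filter on dim probes, which left 7 members, that median was 0.075. In YAP (2SA), 2 were higher and 8 lower, with a median of -0.32 beside -0.03 over all genes. Between the mutants 9 of the 10 were lower in YAP (2SA) than in YAP (1SA), and the median was -0.52 beside -0.03. Of all genes, 49.7% were higher in YAP (1SA) and 43.6% in YAP (2SA) than in YAP (WT). In YAP (2SA) against YAP (1SA) 45.6% of all genes were higher. Both comparisons with YAP (WT) share that array, so they are not independent of each other.

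Past the limit of repeated spots, 5 members were higher and 0 lower in YAP (1SA) than in YAP (WT), where 15.9% of all genes were higher and 18.9% lower. In YAP (2SA), 0 were higher and 7 lower, beside 15.4% and 19.1% of all genes. Between the mutants 0 were higher and 7 lower in YAP (2SA), beside 21.1% and 23.8%. Past 2 of the wider software errors, 4 members were higher in YAP (1SA), which were Glul, Lgr5, Rhbg and Slc1a2, and 0 were lower, beside 4.85% and 7.43% of all genes. Past the same error 0 were higher and 4 lower in YAP (2SA), which were Axin2, Lgr5, Lect2 and, at the very edge, Slc1a2, beside 6.09% and 5.49% of all genes.

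At 2-fold, few members differed from YAP (WT), and 3 differed between the mutants. In YAP (1SA) against YAP (WT), 1 member was at least 2-fold higher and 0 were 2-fold lower, where the shares of all genes were 0.727% and 1.14%. At 1.5-fold the members' counts were 3 higher and 0 lower, beside 3.08% and 4.67%. In YAP (2SA) against YAP (WT), 0 members were 2-fold higher or lower, beside 1.12% and 0.543% of all genes. At 1.5-fold the counts were 0 higher and 3 lower, beside 3.79% and 3.02%. In YAP (2SA) against YAP (1SA), 0 members were 2-fold higher and 3 were 2-fold lower, beside 2.47% and 1.12%, and at 1.5-fold the counts stayed at 0 and 3, beside 6.99% and 4.56%.

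**Figure D1:**
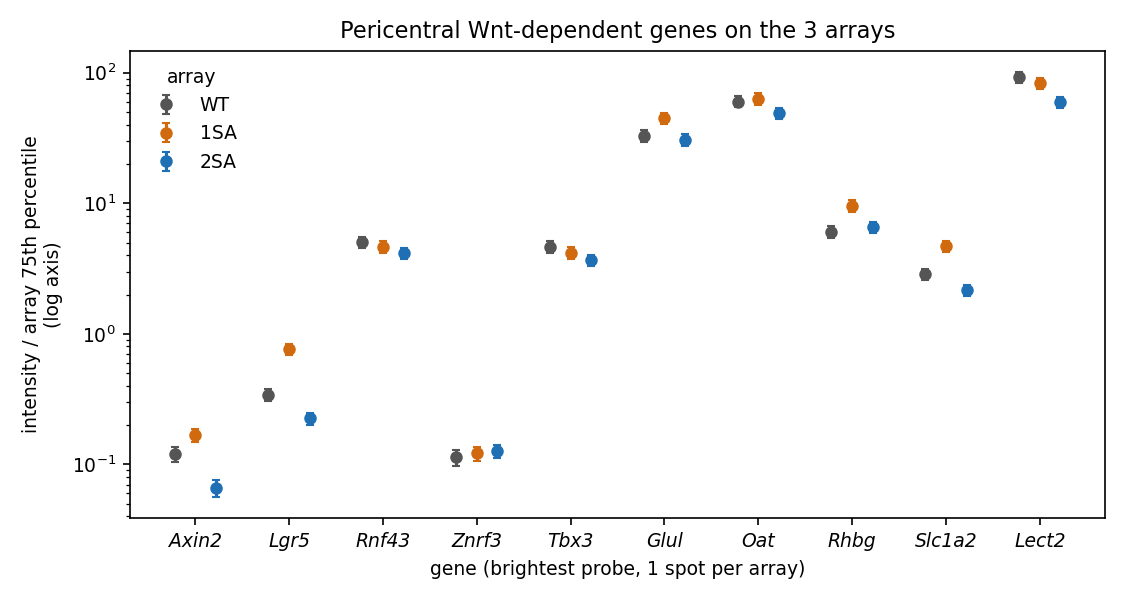
Intensity of the 10 genes on the 3 arrays as a multiple of the array's 75th percentile (log axis), 1 spot per gene and array, with the scanner software's error as bars. Lgr5 stood highest on YAP (1SA) and lowest on YAP (2SA), while Znrf3 lay within its error on all 3 arrays, and heights cannot be compared between genes because each has its own probe.

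Among the genes of the Wnt receptor complex, Lgr5 had the largest difference of the 10 members in YAP (1SA) against YAP (WT) and between the mutants. Lgr5 is a receptor for R-spondins and a direct Wnt target. Its intensity was 99.0 ± 10.4 on YAP (WT), 209.7 ± 21.1 on YAP (1SA) and 71.9 ± 7.56 on YAP (2SA), where ± gives the software's error of 1 spot. After scaling, Lgr5 was 2.23-fold higher in YAP (1SA) than in YAP (WT), a log2 difference of 1.16, and in YAP (2SA) the difference from YAP (WT) was -0.60. From YAP (1SA) to YAP (2SA) the difference was -1.76, so that YAP (2SA) held 0.296 of the YAP (1SA) level. With normexp background correction the differences from YAP (WT) were 0.86, under 2-fold, and -0.34, and all 3 arrays were separated by more than 2 SD of repeated spots under either correction. Lgr5 ranked 67 of 13626 genes from the highest in YAP (1SA) against YAP (WT) and 25 from the lowest in YAP (2SA) against YAP (1SA).

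Rnf43 and Znrf3 encode membrane ubiquitin ligases that remove Frizzled receptors and are themselves induced by Wnt. Rnf43 gave intensities of 1470 ± 147 on YAP (WT), 1284 ± 128 on YAP (1SA) and 1330 ± 133 on YAP (2SA). It was lower in both mutants, with differences from YAP (WT) of -0.12 in YAP (1SA) and -0.28 in YAP (2SA), and only that of YAP (2SA) lay past the limit of 0.21. Znrf3 gave 32.9 ± 4.35, 33.6 ± 4.10 and 40.4 ± 4.68 in the same order, with differences from YAP (WT) of 0.11 and 0.16. None of the Znrf3 differences passed the limit, so the order of its 3 levels was not resolved. Between the mutants these negative regulators differed by -0.16 for Rnf43 and 0.05 for Znrf3, beside -1.76 for Lgr5.

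Axin2 encodes a scaffold of the complex that degrades beta-catenin and is a common readout of Wnt activity. Its measured probe had intensities of 34.7 ± 4.55 on YAP (WT), 46.0 ± 5.20 on YAP (1SA) and 21.3 ± 3.15 on YAP (2SA). Its differences from YAP (WT) were 0.48 in YAP (1SA) and -0.84 in YAP (2SA), and the mutants differed by -1.33. With normexp background correction these values were 0.31, -0.40 and -0.71. Axin2 ranked 60 of 13626 from the lowest between the mutants without that correction. The signal was near the low end of the arrays, and its own software error of a difference was larger than for bright genes, at 0.25 for YAP (1SA) and 0.29 for YAP (2SA) against YAP (WT). Of these, the 0.48 of YAP (1SA) stayed inside 2 software errors. A further Axin2 probe, at 4.13, 4.96 and 6.83, was not well above background on any array and gives no second reading.

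Tbx3, a T-box transcription factor of pericentral hepatocytes, had intensities of 1354 ± 135 on YAP (WT), 1154 ± 115 on YAP (1SA) and 1173 ± 117 on YAP (2SA). The scaled differences from YAP (WT) were -0.15 and -0.34. YAP (WT) thus had the highest value for Tbx3, as it had for Rnf43 and Lect2. For each of these genes its lead over YAP (1SA) lay inside the limit, so the highest array was not resolved. The mutants themselves differed by -0.19 for Tbx3, also inside the limit.

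The enzymes and transporters of ammonia and glutamate handling were all higher in YAP (1SA) than in YAP (2SA). Glul, glutamine synthetase, is confined to the hepatocytes nearest the central vein. Its intensity was 9553 ± 955 on YAP (WT), 12358 ± 1236 on YAP (1SA) and 9801 ± 980 on YAP (2SA). Glul was higher by 0.45 in YAP (1SA), while its difference of -0.10 in YAP (2SA) lay inside the limit, so YAP (WT) and YAP (2SA) were not separated. Between the mutants Glul differed by -0.55.

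Rhbg, an ammonia transporter of the Rhesus family, had intensities of 1763 ± 176, 2647 ± 265 and 2103 ± 210 on YAP (WT), YAP (1SA) and YAP (2SA). It was 1.58-fold higher in YAP (1SA) than in YAP (WT), a difference of 0.66. In YAP (2SA) the difference of 0.12 lay inside the limit. Like Glul, Rhbg stood apart on the YAP (1SA) array only, and it was the 1 member whose lowest level was on YAP (WT) while its highest was on YAP (1SA).

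Slc1a2, a glutamate transporter, was read by 3 probes, the only repeated reading of a member. The brightest gave 832.8 ± 83.3 on YAP (WT), 1289 ± 129 on YAP (1SA) and 689.2 ± 69.0 on YAP (2SA). It was 1.63-fold higher in YAP (1SA), a difference of 0.71, its difference in YAP (2SA) was -0.41, and the mutants differed by -1.12. The next probe gave 53.9 ± 6.06, 86.8 ± 8.97 and 50.2 ± 5.47, with differences of 0.77 and -0.24 from YAP (WT), and YAP (2SA) held 0.499 of the YAP (1SA) level. The dimmest was not well above background on YAP (WT) and gave 18.7 ± 2.97 on YAP (1SA) and 12.0 ± 2.54 on YAP (2SA). For it YAP (1SA) was at least 1.58-fold higher than YAP (WT), taking the higher of the YAP (WT) reading and the lowest measured signal on that array as the floor, and the mutants differed by -0.85. All 3 probes therefore placed YAP (1SA) highest. For YAP (2SA) against YAP (WT), the -0.24 of the next probe lay inside 2 software errors, its error being 0.23. The dimmest probe gave no measured difference there, so a lower level in YAP (2SA) rested on the brightest probe.

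Oat, ornithine aminotransferase, feeds glutamate formation in the same cells. Its intensities were 17490 ± 1749, 17471 ± 1747 and 15658 ± 1566 on YAP (WT), YAP (1SA) and YAP (2SA). The differences from YAP (WT) were 0.08 and -0.30. Oat did not separate YAP (WT) from YAP (1SA), and its sign there turned to -0.01 under quantile normalisation.

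Lect2, a protein secreted by hepatocytes and a beta-catenin target in liver, followed another order. Its intensities were 26759 ± 2676 on YAP (WT), 22946 ± 2295 on YAP (1SA) and 18944 ± 1894 on YAP (2SA). Its differences from YAP (WT) were -0.14 in YAP (1SA), inside the limit, and -0.63 in YAP (2SA), where 0.644 of the YAP (WT) level remained. The mutants differed by -0.49.

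**Figure D2:**
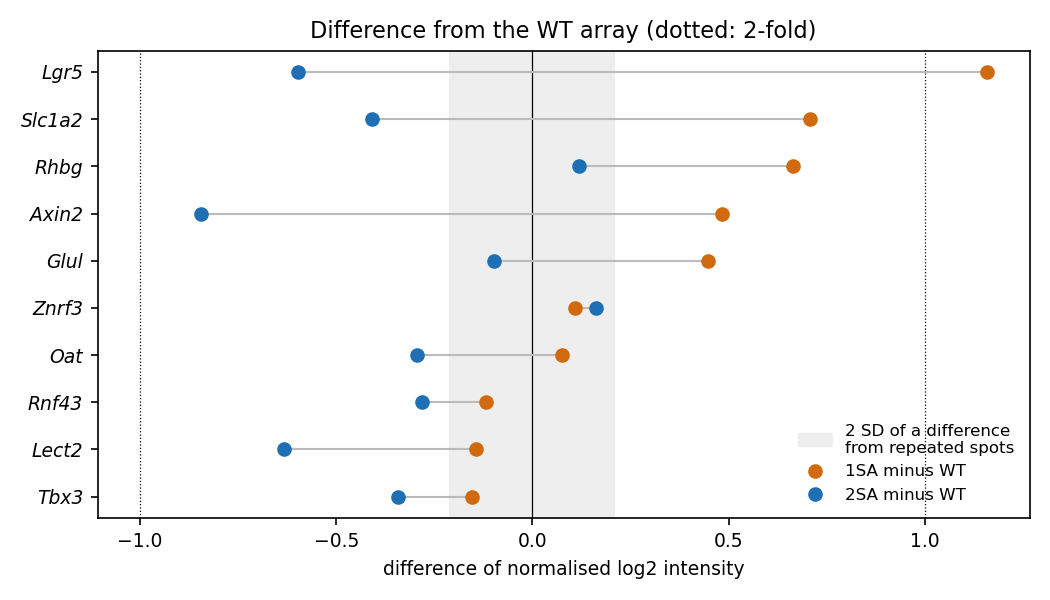
Difference of each gene from the YAP (WT) array in normalised log2 intensity for YAP (1SA) (orange) and YAP (2SA) (blue), with 2 SD of repeated spots shaded and 2-fold dotted. Lgr5 in YAP (1SA), at 1.16, is the 1 point past 2-fold, and Lgr5, Slc1a2 and Axin2 have points past the shading on both sides.

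Over the 3 arrays the members fell into 4 orders. In 5 of them, Glul, Axin2, Lgr5, Oat and Slc1a2, YAP (1SA) was highest and YAP (2SA) lowest. In 3, Tbx3, Rnf43 and Lect2, YAP (WT) was highest and YAP (2SA) lowest. Rhbg was lowest on YAP (WT) and highest on YAP (1SA), and Znrf3 was lowest on YAP (WT) and highest on YAP (2SA). Only for Lgr5, Axin2 and Slc1a2 were both steps of the order larger than 0.21.

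**Figure D3:**
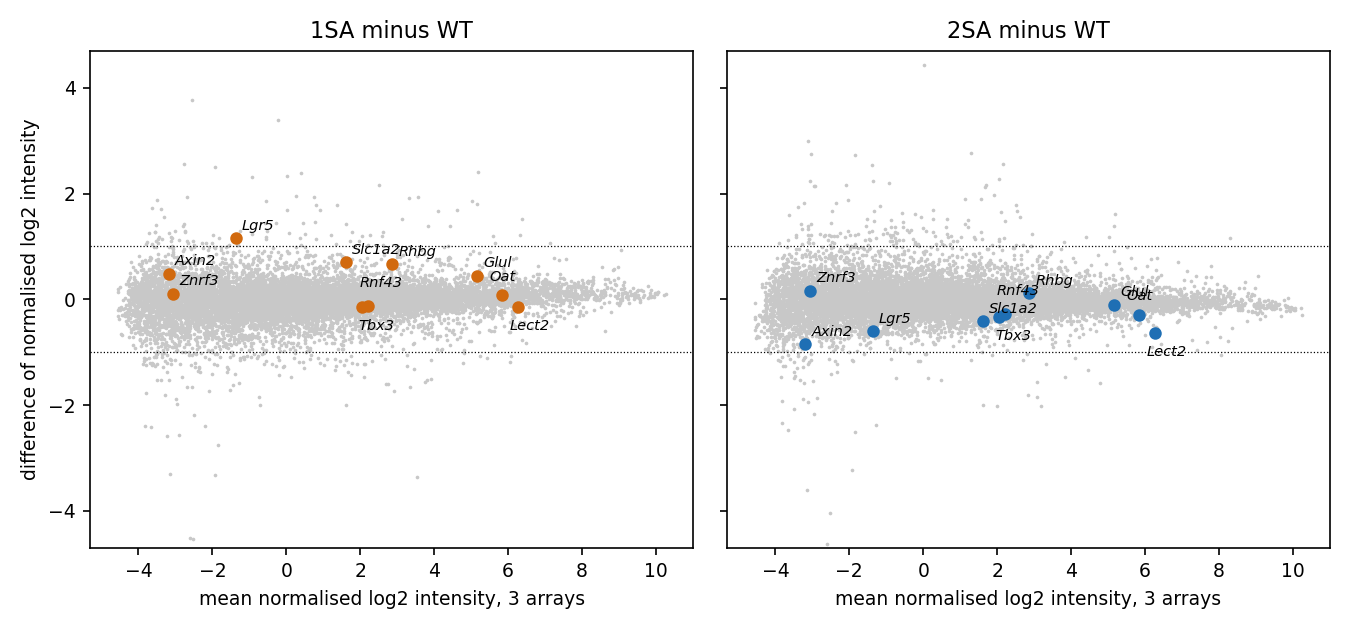
Difference from YAP (WT) in normalised log2 intensity against the mean over the 3 arrays for 13626 genes (grey), with the 10 members labelled and 2-fold dotted. The spread of all genes is wider at low signal, where Axin2, Znrf3 and Lgr5 lie, than at high signal, where Glul, Oat and Lect2 lie.

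The pair of differences of a gene from YAP (WT) was compared with those of 13145 genes by Euclidean distance. The genes nearest to Glul were Crip3 (0.45 and -0.10), Rprd1a (0.45 and -0.10) and Mbd1 (0.46 and -0.10), and 101 genes lay within 0.10 of it. Nearest to Lect2 were Rnu1b6, Scarf2 and Usp36, with 57 genes within 0.10. Nearest to Oat were Crtc1, Magel2 and Slc17a3, with 465 genes within 0.10. With only 3 arrays, many genes share a pattern by this measure.

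Other pericentral hepatocyte genes had a similar layout. Of 30 listed, 29 were measured. In YAP (1SA) 22 were higher and 7 lower than in YAP (WT), 16 and 4 of them past the limit of repeated spots, and the median was 0.24. In YAP (2SA) 9 were higher and 20 lower, 3 and 12 past the limit, with a median of -0.13, and between the mutants 26 of the 29 were lower in YAP (2SA), with a median of -0.50. Among the brightest, Gstm1, a glutathione transferase, differed from YAP (WT) by 0.33 in YAP (1SA) and -0.22 in YAP (2SA), and Cyp2e1, which oxidises ethanol, by 0.27 and -0.24. Rcan2, a calcineurin regulator, had the highest value of the list in YAP (1SA), 0.91, and 0.10 in YAP (2SA). Cyp7a1, the rate-limiting enzyme of bile acid synthesis, had the lowest in YAP (2SA), -1.82, and -0.21 in YAP (1SA). Por, the electron donor of cytochromes P450, was lower on both arrays, at -0.50 and -0.90. Arntl, a core clock gene, had the highest value in YAP (2SA), 1.20, and -0.28 in YAP (1SA). It was dim, at 47.0 on YAP (WT), 36.8 on YAP (1SA) and 118.7 on YAP (2SA).

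Periportal hepatocyte genes differed less than these in YAP (1SA) and between the mutants. In YAP (2SA) their median was close to the -0.13 of the other pericentral genes. Of 20, all measured, 12 were higher and 8 lower in YAP (1SA), 5 and 3 past the limit, with a median of 0.05. In YAP (2SA) 4 were higher and 16 lower, 0 and 7 past the limit, with a median of -0.12, and between the mutants the median was -0.24. In YAP (1SA) the values ran from -0.71 for Hsd17b6 to 0.43 for Tat. The urea cycle enzyme Ass1, among the brightest, differed by 0.40 in YAP (1SA) and -0.10 in YAP (2SA). Other urea cycle genes of the list had 0.35 (Otc), 0.06 (Cps1), 0.04 (Arg1) and -0.07 (Asl) in YAP (1SA). They are named here for that pathway, not by the rule for naming genes. The difference between the pericentral and periportal lists was not tested.

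The general targets of beta-catenin did not follow the members throughout. Of 16 listed, 11 were measured, with medians of 0.11 in YAP (1SA), 0.08 in YAP (2SA) and -0.20 between the mutants. In YAP (1SA) 8 of the 11 were higher, and in YAP (2SA) 6. Nkd1, a feedback inhibitor of Wnt signalling, had values of 0.26 and -0.60 in that order, and Tcf7, a TCF factor and Wnt target, 0.37 and -0.45. Tcf7 was dim like Axin2, with intensities of 26.4 on YAP (WT), 32.4 on YAP (1SA) and 21.2 on YAP (2SA). Nkd2 had 0.67 and -0.00, and Notum, which inactivates Wnt ligands, 0.06 and -0.22. The growth genes differed in another way, Myc with 1.25 and 0.40 and Ccnd1, cyclin D1, with -0.37 and 0.36.

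Upstream of the members, many Wnt ligands were too dim to read. Of 25 ligands, R-spondins and secretion factors, 12 were measured on all arrays, with medians of 0.00 in YAP (1SA) and -0.25 in YAP (2SA). Of the ligands known from the central vein, Wnt9b differed by -0.41 and -0.62 from YAP (WT) and Rspo3 by 0.21 and -0.45. Wnt2 was measured on 1 array only, and Wnt9b, Rspo3 and Wnt2 were added here for their known source, not by the rule for naming genes. Rspo1 had the lowest value of the list in YAP (1SA), -1.35, and -0.68 in YAP (2SA), and Wnt9a the lowest in YAP (2SA), -0.90, with 0.14 in YAP (1SA). Wnt9b, Rspo1 and Wnt9a were dim, while Rspo3 was brighter, at 218.1 on YAP (WT), 239.7 on YAP (1SA) and 175.5 on YAP (2SA). Intensities on YAP (WT), YAP (1SA) and YAP (2SA) were 55.8, 39.8 and 40.0 for Wnt9b and 88.2, 32.9 and 60.3 for Rspo1. For Wnt9a they were 69.0, 72.2 and 40.7.

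The receptors and the cytoplasmic steps had medians near 0 on both arrays. The 11 measured of 17 receptors had medians of -0.04 and -0.08, and the co-receptors Lrp6 (-0.03 and -0.08) and Lrp5 (-0.04 and -0.10) lay inside the limit. Fzd7, a Frizzled receptor, had 0.83 in YAP (1SA) and 0.21 in YAP (2SA), and Lgr4, the relative of Lgr5, 0.12 and 0.23. All 20 genes of the destruction complex and other cytoplasmic steps were measured, with medians of 0.03 and -0.02. Of these, 3 were above and 1 below the limit in YAP (1SA), and 2 above and 3 below in YAP (2SA). Apc2, a relative of the tumour suppressor APC, had the highest value in YAP (1SA), 2.39, and 0.15 in YAP (2SA), with intensities of 214.7, 1064 and 261.9. Siah1a, a ubiquitin ligase, had the lowest on both arrays, -0.47 and -0.60, at dim intensities of 42.4, 29.0 and 30.7. Ctnnb1, beta-catenin itself, was at 0.03 and 0.02 and was named for its role. The 12 measured of 15 nuclear partners had medians of -0.02 and -0.24, with 7 past the limit downward in YAP (2SA), and only 3 of 13 secreted inhibitors were measured, with medians of -0.14 and -0.42.

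**Figure D4:**
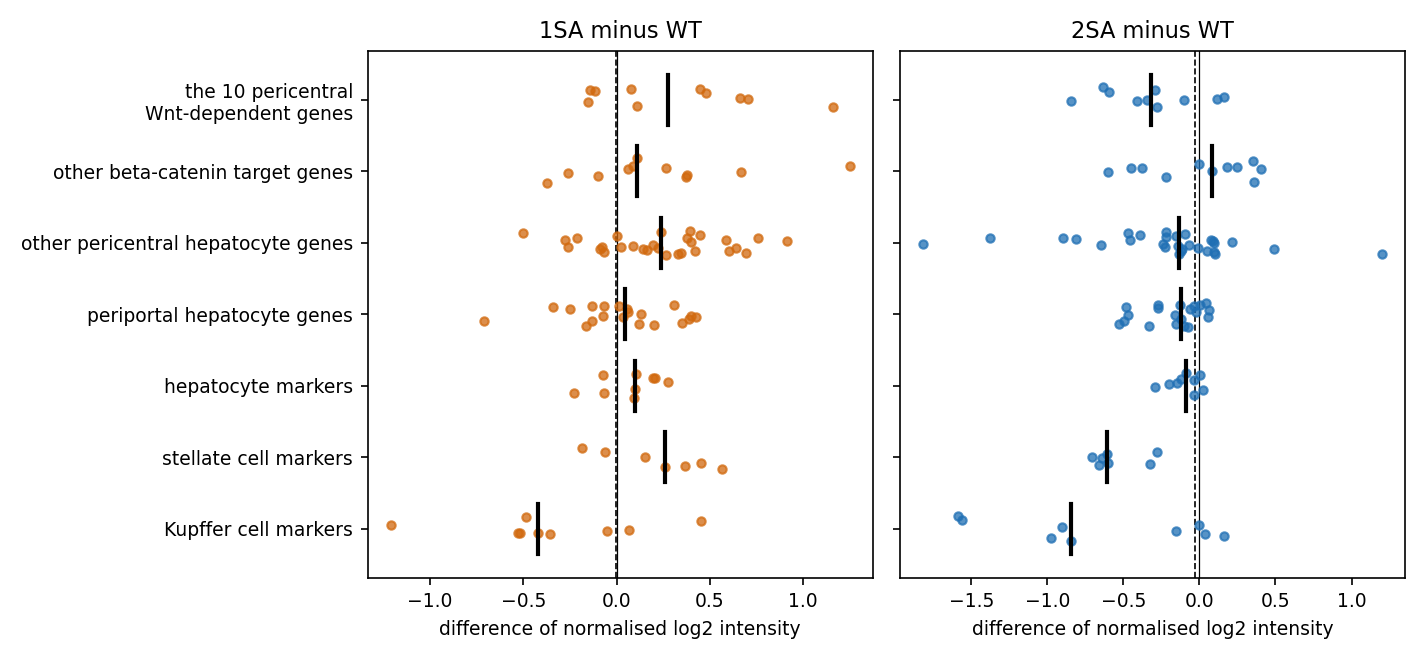
Differences from YAP (WT) in normalised log2 intensity for the 10 members and 6 gene lists, 1 point per gene measured on all 3 arrays, with list medians as thick bars and the median of all genes dashed. In YAP (2SA) the medians of the members (-0.32), stellate cell markers (-0.61) and Kupffer cell markers (-0.84) lie below that of all genes (-0.03), while the hepatocyte markers (-0.09) lie near it. The Kupffer cell markers are spread widely there, from -1.59 to 0.16.

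The tissue label was checked against markers of liver cells. The hepatocyte markers were bright, with 9 of 10 measured, and their summed level was 3336 times the 75th percentile on YAP (WT), 3553 on YAP (1SA) and 3002 on YAP (2SA). Their medians were 0.10 in YAP (1SA) and -0.09 in YAP (2SA), with 1 gene of 9 past the limit of repeated spots upward and 1 downward in YAP (1SA). In YAP (2SA) 1 was past it, downward, which was Alb at -0.29. By sign alone, 6 of the 9 hepatocyte markers were higher in YAP (1SA) than in YAP (WT), and 7 were lower in YAP (2SA). Between the mutants 7 of the 9 were lower in YAP (2SA), with a median of -0.18. For the members the same counts were 7, 8 and 9 of 10, so the direction was not particular to them. The members' medians of 0.28 and -0.32 were farther from 0 than the 0.10 and -0.09 of the hepatocyte markers. With the stricter filter on dim probes the members' median in YAP (1SA) was 0.075. That is below the 0.10 of the hepatocyte markers.

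Markers of other cells moved with the members in part, and their part in the result was not tested. Stellate cell markers, of which 7 of 8 were measured, had summed levels of 5.46 on YAP (WT), 6.88 on YAP (1SA) and 3.45 on YAP (2SA), the order of Glul, Axin2, Lgr5, Oat and Slc1a2. In YAP (2SA) all 7 were lower than in YAP (WT), with a median of -0.61, from Colec11 at -0.71 to Des at -0.28. In YAP (1SA) 5 of the 7 were higher, with a median of 0.26. Kupffer cell markers, 9 of 10 measured, summed to 268.5, 201.3 and 170.0, and their medians were -0.42 and -0.84. They did not move as 1 group. In YAP (2SA) 7 were lower than in YAP (WT), 5 of them past the limit, and 2 were higher. Values there ran from Marco at -1.59 to C1qa at 0.16, with the bright Csf1r at -0.01. In YAP (1SA) they ran from Marco at -1.21 to Clec4f at 0.45. On YAP (WT), Cd5l gave 115.4 and Marco 52.5 of the Kupffer sum. Sinusoidal endothelial markers, all 10 measured, summed to 102.2, 106.2 and 87.4, with medians of -0.08 and -0.11. Cholangiocyte markers, 7 of 8 measured, summed to 13.4, 4.57 and 11.1, lowest on YAP (1SA), with Spp1 at -1.73 there. Lymphocyte markers, 5 of 8 measured, summed to 48.7, 43.4 and 37.9, granulocyte and monocyte markers, 5 of 8, to 10.2, 13.4 and 9.85, and blood genes, 4 of 6, to 60.6, 101.9 and 76.2. Several sums rested mostly on 1 gene. On YAP (WT), Spp1 gave 12.2 of the cholangiocyte sum, Cd4 39.6 of the lymphocyte sum and Elane 7.28 of the granulocyte and monocyte sum. Colec11 gave 3.59 of the stellate sum on YAP (WT) and 4.63 on YAP (1SA), and Hba-a1 33.3 of the blood sum on YAP (WT). From YAP (WT) to YAP (1SA), Ccr2 went from 0.48 to 2.44 in the granulocyte and monocyte sum, and Elane from 7.28 to 8.67. In YAP (2SA) 3 of the 5 lymphocyte markers were higher than in YAP (WT), with a median of 0.03, although their sum was lower.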

How the data were processed

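Labelled RNA of mouse liver was hybridised to 3 SurePrint G3 mouse arrays, 1 per group, and the authors read the scans with Agilent Feature Extraction, whose version the file headers give as 10.10.1.1. Spot intensity as deposited is linear, background-subtracted and not scaled between arrays. The deposited series matrix held the same intensity times 1 constant per array (3.02 for WT, 3.08 for 1SA and 2.81 for 2SA) and was used as an alternative. The arrays are annotated to mm9.

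Each array held 59305 spots without controls, for 55681 probes. Spots marked non-uniform or population outlier (181, 148 and 182 on WT, 1SA and 2SA) were left out, and no member spot was saturated. The log2 intensity minus that of the array's 75th percentile was averaged over a probe's spots. A probe was measured where at least 50% of its spots were well above background, which held for 28944, 29680 and 30755 probes. RefSeq accessions named 26762 probes through a GRCm38.p6 gene table, used for names only. A gene was its brightest probe measured on all arrays. Differences were described by counts and medians beside those of all genes, without a test. Repeated spots came from 288, 287 and 295 measured probes.

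The members and the 16 lists were chosen with earlier results of these data known. Besides the members, the 2 brightest genes of a list and its highest and lowest in each comparison with WT could be named, and the 3 genes nearest to Glul, Lect2 and Oat. Not every gene that this rule takes is reported here. Alternatives were quantile normalisation, the array median, normexp with an offset of 50 on median spot and background signals (planned on mean signals), the series matrix, outlier spots kept, no filter, a stricter filter at the median signal of measured probes, the mean of all measured probes, and thresholds of 1.5-fold and 3-fold. The procedure was checked on simulated data. Python 3.11.15, pandas 2.3.3, numpy 2.4.6, matplotlib 3.10.9, R 4.3.3 and limma 3.58.1 were used.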

Additional observations from a re-analysis of the deposited data

Results flagged for a closer look

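Axin2, Lgr5 and Slc1a2 lay on opposite sides of YAP (WT) in the mutants, each past 2 SD of repeated spots. Axin2 differed by 0.48 in YAP (1SA) and -0.84 in YAP (2SA), Lgr5 by 1.16 and -0.60, and Slc1a2 by 0.71 and -0.41. The 0.48 of Axin2, a dim gene, lay inside 2 software errors, and the -0.41 of Slc1a2 lay at their very edge. The next brightest Slc1a2 probe gave -0.24 in YAP (2SA), inside 2 software errors, and the dimmest gave no measured difference from YAP (WT). Each value rests on 1 array per group, and no test was made of the difference between the mutants.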

How the results depend on the processing

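No paired analysis was possible because there was only 1 array in a group. For the same reason no replicate could be left out, and a slide block could not be fitted with 1 slide. No sign of a member summary was reversed by an alternative. The count of members at least 2-fold higher in YAP (1SA) than in YAP (WT), 1 as reported, was 0 with normexp, 0 with the stricter filter (7 members left), 3 at 1.5-fold and 0 at 3-fold. The median of that comparison, 0.28 as reported, was 0.075 with the stricter filter. The count at least 2-fold lower in YAP (2SA) than in YAP (WT), 0 as reported, was 3 at 1.5-fold. Between the mutants the median of -0.52 was -0.41 with quantile normalisation, and the count at least 2-fold lower, 3 as reported, was 1 with the stricter filter and 1 at 3-fold. With normexp, Lgr5 had 0.86 in YAP (1SA) and -0.34 in YAP (2SA), and Axin2 0.31 and -0.40. Between the mutants Axin2 had -0.71 with normexp, under 2-fold, and so left the count at least 2-fold lower. The cause of these shifts was not tested, except that the stricter filter dropped dim members by construction. Signs were mixed over the alternatives for Oat in YAP (1SA) (-0.01 to 0.11), for Znrf3 in YAP (2SA) (-0.02 to 0.19) and for Znrf3 between the mutants (-0.13 to 0.13). The counts of all genes at least 2-fold higher and lower were 99 and 155 in YAP (1SA) against YAP (WT), 153 and 74 in YAP (2SA) against YAP (WT), and 337 and 153 between the mutants. With normexp they were 50 and 48, 62 and 24, and 151 and 54, and without a filter 553 and 788, 584 and 723, and 839 and 685. The stricter filter gave 45 and 54, 59 and 22, and 147 and 63, at 1.5-fold 419 and 637, 516 and 411, and 953 and 622, and at 3-fold 26 and 29, 34 and 20, and 86 and 34. The share of these calls that was higher, 39.0%, 67.4% and 68.8%, was 51.0% for YAP (1SA) with normexp, and 44.7% for YAP (2SA) and 55.1% between the mutants without a filter. For YAP (2SA) it was 55.7% at 1.5-fold. Dim members such as Axin2 and Znrf3 are limited by signal over background, and all members by 1 spot per probe and 1 array per group.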
